A study of Mus musculus and Homo sapiens with 12 samples.

Results

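DHRS2, AMH and MFAP4 are 3 of the 11513 human genes with expression values in KOPTK1 cells grown with or without a gamma-secretase inhibitor. They were chosen on measured values of that same contrast, as genes whose FPKM was among those most increased by the inhibitor, so their inhibitor-to-control differences are given as a description and carry no test. KOPTK1 is an established line of human T-cell acute lymphoblastic leukaemia (T-ALL). It received the solvent DMSO or the inhibitor Compound E (gSI) over 72 h, in 2 libraries per condition. All 4 libraries come from this 1 line, and the labels do not say whether the libraries of a condition were separate cultures, so the spread between them may be technical. The series also holds 8 libraries of mouse T-ALL from a valine diet experiment. The mouse genes Dhrs2, Amh and Mfap4 were not analysed here, and all values below are human.

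The 3 genes belong to unrelated families. DHRS2 (also called HEP27) is a short-chain dehydrogenase/reductase, an enzyme class that uses NAD(H) or NADP(H) to interconvert carbonyls and alcohols. AMH, anti-Müllerian hormone, is a secreted ligand of the TGF-beta family, best known from Sertoli cells, where it makes the Müllerian ducts regress, and from ovarian granulosa cells. It signals through the type II receptor AMHR2, through type I receptors shared with bone morphogenetic proteins (BMPs), and through SMAD1, SMAD5 and SMAD9. MFAP4 is a secreted glycoprotein of the extracellular matrix with a fibrinogen-like domain that associates with elastic fibres and integrins. Gamma-secretase releases the active intracellular part of NOTCH receptors, and none of the 3 genes is a standard T-cell NOTCH target.

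Values were FPKM as deposited, a measure that divides reads by gene length and library depth, and read numbers were recovered from the whole-number steps between them. Recovered reads over all listed genes ranged from 22933342 to 42232859 per library. The depth value used as divisor was 0.939 and 1.01 times these reads with DMSO and 1.07 and 1.06 times with gSI. Of the 6679 genes tested, those averaging 1 FPKM or more, 22.8% rose and 30.3% fell at an adjusted p of 0.05 (limma, Benjamini-Hochberg), so a rise as such was common. Fewer genes were called than the 3547 from all libraries when either gSI library was left out, not only the deepest one, gSI replicate 2. Leaving out a DMSO library changed the number less. As a check of the inhibitor, all 10 tested NOTCH targets fell. HES1, a repressor under NOTCH control, was at 6.72 and 6.18 FPKM with DMSO and at 0.0253 and 0.0431 FPKM with gSI. T-ALL markers were present in every library. The summed FPKM of CD3D, CD3E, CD3G, CD2, CD5, CD7, CD1A, CD1B, LCK and PTPRC was 376 to 385 with DMSO and 207 to 220 with gSI, and 9 of these 10 genes fell. In bulk RNA, fewer cells expressing a gene and less RNA per cell cannot be told apart, and the same holds for increases.

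DHRS2 (ENSG00000100867) had the steepest increase of the 3 genes. It was at 3.36 and 3.97 FPKM in the DMSO libraries and at 17.5 and 18.8 FPKM in the gSI libraries, from 1124, 1581, 8299 and 13068 reads. The lower gSI value was 4.40 times the higher DMSO value, in a gene chosen for its increase. Group means were 3.67 ± 0.431 FPKM with DMSO and 18.1 ± 0.927 FPKM with gSI (SD, n = 2 each), a ratio of 4.94. On the scale of log2(FPKM + 1), which shrinks the change of low genes, the difference was 2.04. The controls differed from each other by more than counting error: their exact 95% Poisson intervals, which cover counting error only, were 3.17 to 3.57 FPKM and 3.78 to 4.17 FPKM. Among the 11513 listed genes DHRS2 moved from places 3112 and 2528 by FPKM in the DMSO libraries to places 444 and 417 in the gSI libraries.

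AMH (ENSG00000104899) was the weakest expressed of the 3. It was at 2.40 and 1.95 FPKM with DMSO, from 143 and 138 reads, and at 6.55 and 7.93 FPKM with gSI, from 554 and 982 reads. The lower gSI library stood at 2.73 times the higher control. The means were 2.18 ± 0.322 and 7.24 ± 0.974 FPKM (SD, n = 2 each), a ratio of 3.33 and a log2(FPKM + 1) difference of 1.37. The Poisson intervals of the control libraries overlapped (2.03 to 2.83 and 1.64 to 2.30 FPKM), whereas those of the gSI libraries did not (6.02 to 7.12 and 7.44 to 8.44 FPKM). With so few control reads, the counting intervals of AMH were the widest of the 3 genes relative to its level.

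MFAP4 (ENSG00000166482) was already abundant in untreated cells. It was at 69.8 and 73.0 FPKM in the DMSO libraries and at 156 and 164 FPKM in the gSI libraries, from 5709, 7103, 18127 and 27856 reads. Libraries of one condition lay close together, with 1.04 times between the controls and 1.05 times between the gSI libraries. The lower gSI value was 2.14 times the higher DMSO value. The means were 71.4 ± 2.22 and 160 ± 5.42 FPKM (SD, n = 2 each), a ratio of 2.24 and a log2(FPKM + 1) difference of 1.15. This was the smallest ratio of the 3 and the largest gain in FPKM, 88.5 against 14.5 for DHRS2 and 5.07 for AMH. Such gains depend on the gene length behind each FPKM. MFAP4 ranked 99 and 89 by FPKM with DMSO and 27 in both gSI libraries.

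**Figure D1:**
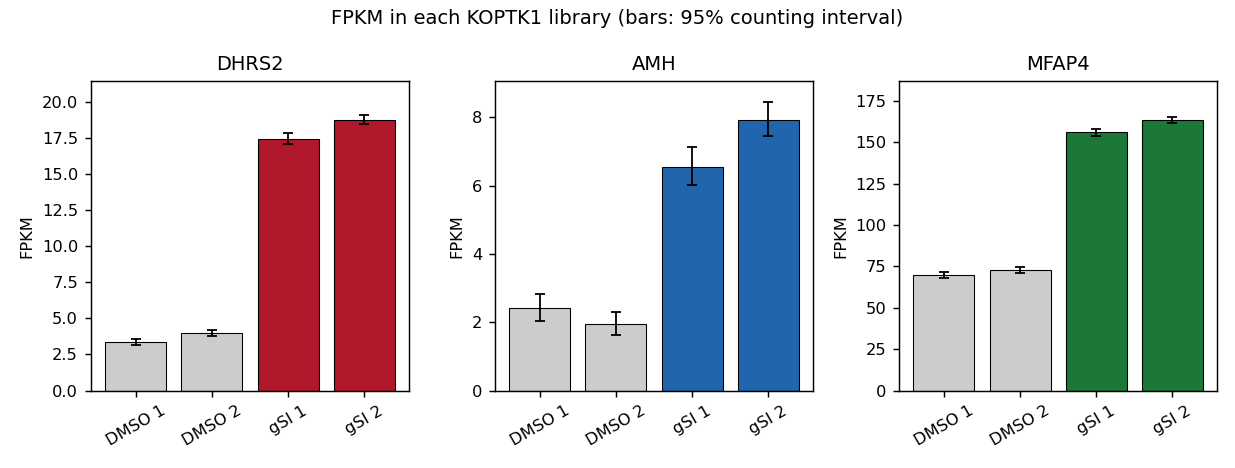
FPKM of DHRS2, AMH and MFAP4 (1 panel each, vertical axes from 0) in the 2 DMSO libraries (grey) and the 2 gSI libraries (coloured). Error bars are exact 95% Poisson intervals of the recovered reads, covering counting error only. In each panel both gSI libraries stand above both controls, and the genes were chosen for this increase.

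By FPKM, a level per length, the order within every library was MFAP4, DHRS2, AMH. In the DMSO libraries DHRS2 and AMH were near each other by this measure, at 3.36 and 3.97 against 2.40 and 1.95 FPKM. Their ranges did not overlap, and in the gSI libraries they were well apart. The length behind each FPKM was recovered as 15524 bp for DHRS2, 2764 bp for AMH and 3798 bp for MFAP4, beside a median of 29939 bp over all listed genes. Many recovered lengths, such as 237543 bp for FBN1, are as long as whole genes with introns. Ranks and shares by FPKM between genes therefore depend on these lengths. The gene model itself, and whether reads in introns were counted, is not given in the sources used here. A longer assumed length lowers FPKM, so the order and the nearness of DHRS2 and AMH per length hold for these lengths. By recovered reads the order was the same, and with DMSO they were far apart, at 1124 and 1581 against 143 and 138 reads. Ratios between conditions within 1 gene do not depend on the length. Gains in FPKM do, and so does the log2 scale through the added 1.

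Among the 511 genes that rose and reached a mean of 5 FPKM in the higher group, DHRS2 ranked 1, AMH 2 and MFAP4 6 by the log2(FPKM + 1) difference. The members were chosen for this increase, so the ranks and their place among the called rises restate that choice and test nothing. DHRS2 and AMH reached a mean of 5 FPKM only with gSI. ENSG00000223496, which has no symbol in the table, came next after AMH (6.51 ± 0.501 and 16.3 ± 0.668 FPKM). It was followed by NEU1, a lysosomal sialidase (3.89 ± 0.313 and 9.91 ± 0.0893 FPKM), and ATF5, a stress-responsive transcription factor (35.5 and 41.4 FPKM with DMSO, 79.4 and 94.9 FPKM with gSI). Just below MFAP4 came PPP1R15A, which promotes dephosphorylation of the translation factor eIF2-alpha (17.4 ± 0.442 and 37.5 ± 0.0442 FPKM, difference 1.07), and CHAC1, a glutathione-degrading enzyme (4.02 ± 0.343 and 9.53 ± 0.137 FPKM, difference 1.07).

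The place of MFAP4 depended on the measure more than that of the other members. By the plain ratio of mean FPKM among the same 511 genes DHRS2 was again first and AMH second, while MFAP4 was at place 8. Over all 6679 tested genes, 1 had a larger ratio than DHRS2, 4 had a larger ratio than AMH and 34 had a larger ratio than MFAP4. The gene above DHRS2 was ENSG00000130487, with no symbol in the table, at 0.338 ± 0.0387 FPKM with DMSO and 4.73 ± 0.570 FPKM with gSI. Of those 34 genes 7 were among the 511, DHRS2 and AMH included. The plot of difference against level shows each member within all tested genes.

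**Figure D2:**
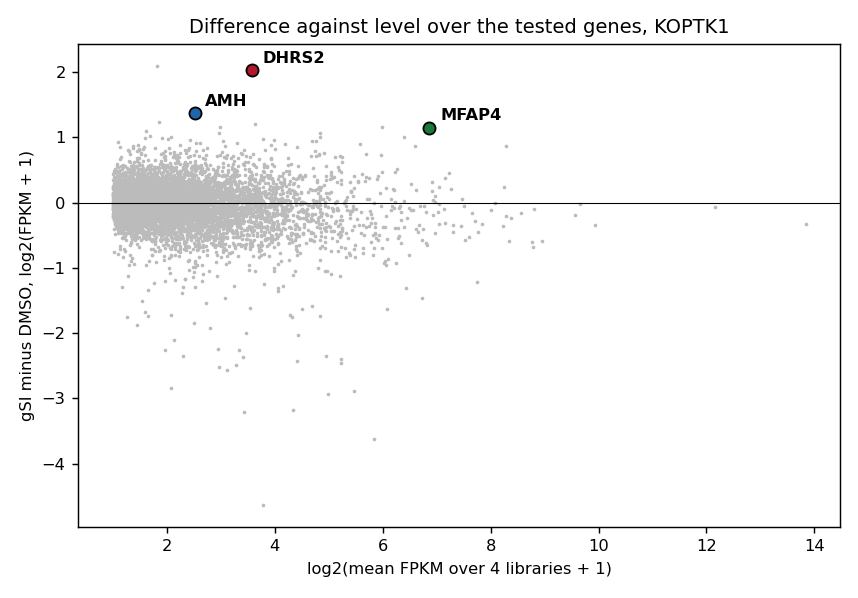
Difference between gSI and DMSO in mean log2(FPKM + 1) (vertical axis) against log2 of the mean FPKM over 4 libraries plus 1 (horizontal axis) for the 6679 tested genes (grey points), with the 3 members coloured. DHRS2 (2.04), AMH (1.37) and MFAP4 (1.15) lie in the upper part of the cloud, MFAP4 at a far higher level than the other two.

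Similarity of profiles was measured as the Euclidean distance between log2(FPKM + 1) values over the 4 libraries, each gene centred on its DMSO mean, and 4 libraries in 2 conditions mainly rank genes by the size of their change. DHRS2 had 1 near match, ENSG00000130487 at a distance of 0.144, and the next closest gene was AMH at 0.983. The 5 genes closest to AMH included NEU1 (0.359), MFAP4 (0.388) and ATF5 (0.429), and the closest was ENSG00000223496 (0.271). MFAP4 lay near PPP1R15A (0.149), NEU1 (0.150), ENSG00000223496 (0.159) and ATF5 (0.172). AMH therefore stood between the other members in the size of the change for which all were chosen. AMH was not among the 5 genes closest to MFAP4, and DHRS2 and MFAP4 were not among each other's 5 closest genes.

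**Figure D3:**
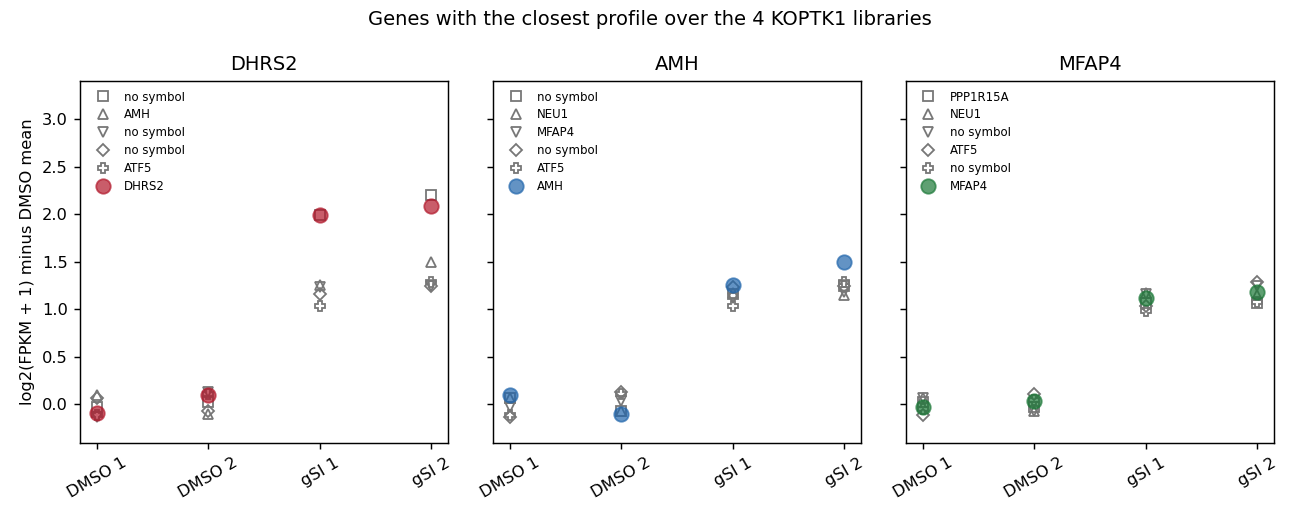
Log2(FPKM + 1) minus the mean of the DMSO libraries (vertical axis) in each of the 4 libraries (horizontal axis) for each member (coloured circles) and the 5 tested genes with the closest profile (open grey symbols; "no symbol" marks genes the table gives by identifier only). For DHRS2 only 1 gene reaches the member's height in the gSI libraries, whereas for MFAP4 all 5 lie within a distance of 0.179.

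Of 43 other short-chain dehydrogenase/reductase genes with values, 16 had a mean of at least 1 FPKM and were tested; 4 rose, 4 fell and 8 did not pass, with a median difference of -0.08 beside -0.03 over all tested genes. The share called in each direction was near that over all tested genes (22.8% rose and 30.3% fell). The rises were those of DCXR, a xylulose and dicarbonyl reductase (16.3 ± 0.870 and 24.5 ± 1.08 FPKM, log2 difference 0.56, SE 0.0820, adjusted p = 2.1e-06), HSD17B10, a mitochondrial enzyme (0.33), DHRS13 (0.25) and SDR39U1 (0.19). The falls were those of HSD17B8, which takes part in mitochondrial fatty acid synthesis (5.02 ± 0.287 and 2.92 ± 0.473 FPKM, difference -0.62, SE 0.0820, adjusted p = 4.3e-07), TGDS (-0.32), RDH10, a retinol dehydrogenase (-0.29), and DECR1 (-0.20). All but DCXR, HSD17B8 and DHRS13 were named after their values were seen. SDR39U1 did not pass with limma-voom on recovered reads (adjusted p = 0.0718), with median-of-ratios scaling (0.0698), or without DMSO replicate 1 or either gSI library (0.131 to 0.366). DECR1 did not pass without either gSI library (adjusted p = 0.0786 and 0.0870). The call of DHRS13 ended without DMSO replicate 2 (adjusted p = 0.0911) or gSI replicate 1 (adjusted p = 0.267), and 5 instead of 8 family members were called without gSI replicate 1.

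DHRS4 and DHRS4L2, the closest relatives of DHRS2, which share its chromosomal cluster, were both under the level needed for the test. DHRS4 was at 0.432 and 0.497 FPKM with DMSO and at 0.371 and 0.468 FPKM with gSI, so its groups overlapped. DHRS4L2 was at 0.263 ± 0.0275 FPKM with DMSO and 0.222 ± 0.00458 FPKM with gSI. DHRS4 and DHRS4L2 are close copies of each other whose reads could be split by the counting, and their values are uncertain for that reason. DHRS7, another oxidoreductase of the family, was at 1.31 ± 0.122 and 1.37 ± 0.00152 FPKM (adjusted p = 0.619). DHRS1 (0.383 ± 0.0276 and 0.506 ± 0.0440 FPKM) and DHRSX (0.00866 ± 0.000747 and 0.00608 ± 0.000763 FPKM) were not tested. Counted by mean FPKM, DHRS2 went from place 9 of 44 listed family members with DMSO to place 2 with gSI, behind DCXR. Its share of their summed FPKM was 4.05% and then 16.2%. By recovered reads, which do not depend on the gene length, its share was 3.22% and 4.07% in the DMSO libraries and 16.3% and 17.5% in the gSI libraries.

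Of 32 other genes listed as TGF-beta family ligands 4 had values and 3 were tested. These 3 rose, beside 22.8% of all tested genes: TGFB1 (3.02 ± 0.174 and 4.44 ± 0.0363 FPKM, difference 0.44, adjusted p = 1.7e-05), BMP4 (1.34 and 1.05 FPKM with DMSO, 1.71 and 2.12 FPKM with gSI, 0.41, adjusted p = 2.9e-05) and GDF11 (3.77 ± 0.282 and 5.01 ± 0.299 FPKM, 0.33, adjusted p = 6.8e-04), which were named after their values were seen. GDF11 did not pass without gSI replicate 2 (adjusted p = 0.0551). The gene not tested was BMP1, a protease that shares the BMP name (0.157 ± 0.0248 and 0.156 ± 0.00655 FPKM). By mean FPKM AMH was at place 3 of these 5 genes, itself included, with DMSO, below GDF11 and TGFB1, and at place 1 with gSI. Its share of their summed FPKM was 21.1% with DMSO and 38.6% with gSI. The recovered length of the other 4 was 9025 to 52324 bp, against 2764 bp for AMH, and by recovered reads AMH was at places 4 and 5 with DMSO and at place 3 in both gSI libraries, with 2.72% and 2.41% and then 5.35% and 6.18% of the summed reads.

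Of the receptors and SMAD proteins of the wider AMH, BMP, activin and TGF-beta family 12 had values and 5 were tested (ACVR1B, ACVR2B, TGFBR1, SMAD2 and SMAD4). Apart from the common partner SMAD4, these are not the components through which AMH is known to signal. In this list 2 fell, 0 rose and 3 did not pass in limma (median -0.13), beside 30.3% falls and 22.8% rises over all tested genes. At an unadjusted p under 0.05 there were 3 lower and 1 higher, beside 2203 and 1688 of all 6679 tested genes. Limma-voom on recovered reads called 3 falls and 1 rise, beside 2091 and 1589 over all 6679. The falls in limma were those of SMAD2, a carrier of the TGF-beta signal (2.80 ± 0.153 and 2.03 ± 0.0394 FPKM, difference -0.32, adjusted p = 3.4e-04), and ACVR2B, an activin receptor (-0.22, adjusted p = 0.0167). ACVR2B did not pass without DMSO replicate 1 or either gSI library (adjusted p 0.0748 to 0.166), and the list count was then 1 without either gSI library. Of the 5 tested, all but SMAD4 were named after their values were seen. Of the type I receptors used by AMH, BMPR1A was at 0.120 ± 0.00489 and 0.121 ± 0.00876 FPKM and ACVR1 at 0.151 ± 0.00577 and 0.179 ± 0.0154 FPKM, both under the filter of 1 FPKM. SMAD1 was at 0.255 ± 0.0342 and 0.249 ± 0.0238 FPKM, SMAD5 at 0.464 ± 0.0367 and 0.553 ± 0.0225 FPKM, and SMAD4 at 1.58 ± 0.0965 and 1.35 ± 0.0582 FPKM (adjusted p = 0.0708), which passed as a fall with median-of-ratios scaling (adjusted p = 0.0419), quantile scaling (0.0395), limma-voom (0.0249) and without DMSO replicate 2 (0.0280). The recovered lengths of BMPR1A (176188 bp), ACVR1 (139416 bp), SMAD1 (76885 bp) and SMAD5 (55901 bp) make their FPKM low for their reads, which averaged 647, 724, 598 and 884 per library. AMHR2, BMPR1B, SMAD9 and ID1 were not analysed here.

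Readouts of BMP-type signalling gave no common direction. Of 8 BMP targets and inhibitors with values 2 were tested and 0 passed, with 0 at an unadjusted p under 0.05 in limma and 0 called by limma-voom. ID3, an inhibitor of basic helix-loop-helix factors induced by BMPs, was at 3.81 and 4.18 FPKM with DMSO and 4.01 and 3.64 FPKM with gSI, with overlapping groups (adjusted p = 0.601). ID2 had a lower level than ID3 and was not tested in the main fit. Its values were higher with gSI, at 0.265 and 0.223 FPKM with DMSO and 0.408 and 0.466 FPKM with gSI. Of 15 factors known to act on the AMH gene, such as those of Sertoli cells, WT1 (0.513 ± 0.00737 and 0.291 ± 0.00147 FPKM) and ZFPM2 had values and neither reached the filter. No value was analysed here for any of 8 Sertoli and granulosa markers, among them SOX9, NR5A1, FOXL2 and INHA.

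SF3A2, a splicing factor gene next to AMH on the chromosome, was 13.5 and 13.3 FPKM with DMSO and 9.98 and 10.3 FPKM with gSI (difference -0.37, a fall). The direction at SF3A2 was thus opposite to that at AMH. MAPK7, a kinase gene beside MFAP4, was at 7.15 and 7.00 FPKM with DMSO and 9.73 and 9.64 FPKM with gSI (difference 0.40, a rise), the same direction as MFAP4 and a smaller change. The library kit keeps strand, but whether counting used it is not given in the sources used here, so reads of overlapping or antisense neighbours cannot be told apart.

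MFAP4 had the highest level of the listed genes of elastic fibres. Of 10 other microfibril and elastic fibre genes with values 0 had a mean of 1 FPKM, so none entered the main test, and MFAP4 made up 97.8% of the summed FPKM of the 11 with DMSO and 98.5% with gSI. The highest of the others were LTBP4, which binds latent TGF-beta, at 0.320 FPKM with DMSO, and the protease ADAMTS10 at 0.492 FPKM with gSI. FBN1, the main microfibril protein, was at 0.169 and 0.160 FPKM with DMSO and at 0.360 and 0.367 FPKM with gSI, a ratio of 2.21 beside 2.24 for MFAP4. The long recovered lengths of these 10 genes (18468 to 452537 bp, 237543 bp for FBN1) make their FPKM low for their reads. By recovered reads MFAP4 was still at place 1 of 11, with 66.8% and 68.1% of the summed reads in the DMSO libraries and 75.2% and 75.7% in the gSI libraries. Other genes with the MFAP name, MFAP1 (3.30 ± 0.420 and 3.43 ± 0.187 FPKM), a spliceosome component, and MFAP3 (0.549 ± 0.0348 and 0.711 ± 0.0264 FPKM), had lower levels than MFAP4. Their recovered lengths were 20310 and 90786 bp. By recovered reads they were also below MFAP4, with 1573 and 1564 for MFAP1 and 1120 and 1219 for MFAP3 with DMSO. Of other genes with a fibrinogen-like domain FGL2, a secreted or membrane-bound regulator of immune cells, was the 1 tested and did not pass (2.40 and 2.07 FPKM with DMSO, 2.04 and 1.82 FPKM with gSI, adjusted p = 0.0972), with 0 genes at an unadjusted p under 0.05 and 0 called by limma-voom with the same filter. Without DMSO replicate 2, 1 gene of this list was called.

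Markers of cells that normally make matrix were scarce. Of 10 fibroblast and smooth muscle markers ACTA2 and TAGLN had values, and none was analysed here for COL1A1, COL1A2, COL3A1, DCN or LUM. The summed FPKM of ACTA2 and TAGLN was 0.498 to 0.556 with DMSO and 0.990 to 1.17 with gSI. ACTA2, smooth muscle actin, was at 0.139 and 0.141 FPKM with DMSO and at 0.134 and 0.131 FPKM with gSI, and TAGLN at 0.417 and 0.357 and at 0.856 and 1.04 FPKM. The part of such cells in the MFAP4 result was not tested. None of 6 epithelial markers had a value analysed here.

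**Figure D4:**
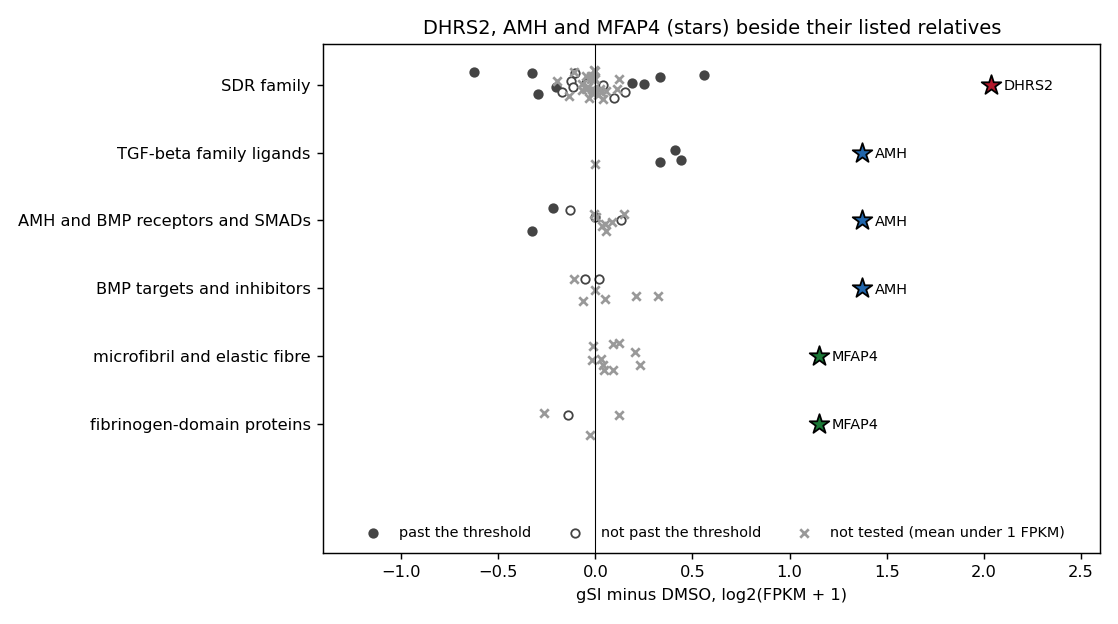
Difference between gSI and DMSO in mean log2(FPKM + 1) (horizontal axis) for the genes of 6 lists (rows), with each member drawn as a star in the rows of its relatives. Filled circles passed an adjusted p of 0.05 in limma, open circles did not, and crosses had a mean under 1 FPKM and were not tested; the stars were chosen for this difference. On this scale no relative reaches the member of its row, and the highest is DCXR of the short-chain dehydrogenase family (0.56).

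The FPKM filter kept many relatives with long recovered lengths out of the test, so the lists were also tested on recovered reads with a mean of at least 20 reads per library (limma-voom, a setting chosen after seeing the data). Over the 11507 genes that passed, 25.4% rose and 28.7% fell. All 10 microfibril and elastic fibre genes could then be tested, and 6 rose, 2 fell and 2 did not pass (median 0.48 beside -0.01 over all these genes). FBN1 rose by 1.15 on the log2 scale (SE 0.0941, adjusted p = 4.7e-32), the matrix cross-linking enzyme LOXL2 by 1.91 (adjusted p = 6.9e-11, from a mean of 77.0 reads, a ratio of 3.80 in mean FPKM), ADAMTS10 by 0.76 and EMILIN2, an elastin-associated glycoprotein, by 0.54. LTBP1 (-0.32) and FBLN2 (-0.50) fell. Outside this list MFAP3 rose by 0.38 (adjusted p = 1.7e-04), and MFAP1 did not pass (0.06, adjusted p = 0.575). Of 4 genes with a fibrinogen-like domain, the tenascin TNXB rose by 1.61 (adjusted p = 3.6e-17, a ratio of 3.03 in mean FPKM beside 2.24 for MFAP4). ANGPTL6 (-2.11, adjusted p = 4.0e-12, from a mean of 46.0 reads) and ANGPT1, a ligand of the receptor TIE2 (-0.39, adjusted p = 0.00168), fell, and FGL2 did not pass. Of the genes in this paragraph, all but FBN1, MFAP1, MFAP3 and MFAP4 were named after their values were seen.

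In the same test 25.4% of all genes rose and 28.7% fell. Of 43 short-chain dehydrogenase genes 5 rose (11.6%) and 9 fell (20.9%), with a median of -0.12. DHRS4 (-0.14, adjusted p = 0.480) and DHRS4L2 (-0.23, adjusted p = 0.161) did not pass. Among AMH and BMP receptors and SMADs 4 rose, 3 fell and 5 did not pass. ACVR1 (0.25, adjusted p = 0.0392), the type II receptor BMPR2 (0.36, adjusted p = 1.7e-04) and SMAD5 (0.25, adjusted p = 0.0277) were among the rises, and BMPR1A (0.01, adjusted p = 0.960) and SMAD1 (-0.03, adjusted p = 0.826) did not pass. Of the 8 BMP targets and inhibitors ID2 (0.85, adjusted p = 0.00355), SMAD7 (0.73) and SKI (0.86) rose and SMAD6 (-0.53) and SMURF2 (-0.22) fell. Both AMH gene regulators with values fell, WT1 (-0.82, adjusted p = 5.9e-12) and ZFPM2 (-0.53, adjusted p = 0.0437). BMPR2, SMAD6, SMAD7, SKI, SMURF2, WT1 and ZFPM2 were named after their values were seen.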

How the data were processed

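RNA of 4 KOPTK1 libraries was sequenced after 72 h. The authors deposited FPKM values per gene and library. STAR, edgeR and hg19 appear in the submitters' processing notes, with neither version nor role. Gene model and length were not stated there. The members and gene lists were chosen with earlier results of these data known.

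Read numbers were recovered from the whole-number ratios between the deposited FPKM of 1 gene. For 95.8% of genes this implied a length that was a whole number to within 0.01 bp. For 484 genes the reads had to be multiplied to reach one, and 5 genes had none, so reads are estimates. The fits were also run on simulated data with far fewer changed genes than were called here, so that run gives no error rate for this contrast.

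The main test used limma 3.58.1 (R 4.3.3, trended variance, both directions) on log2(FPKM + 1). A gene entered at a mean of 1 FPKM or more. P-values were adjusted by Benjamini-Hochberg, and the threshold was 0.05. No p was given for the members. Genes named by rule were the members, those ranked 1 above and 2 below them, their 5 closest profiles, fixed relatives and neighbours, and up to 6 called genes per list that changed by at least 0.5. At most 2 identifiers without a symbol were printed. Some results of planned comparisons are not reported here. Human coordinates, promoters and proteins were not analysed here.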

Additional observations from a re-analysis of the deposited data

How the results depend on the processing

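The members were chosen for a large increase in these libraries, so a kept sign is no independent support. Their log2 difference kept its sign with each pseudocount and scaling and without each library. With a pseudocount of 0.1 it was 2.28 for DHRS2 and 1.69 for AMH, and with 5 it was 1.42 and 0.77, since a pseudocount weighs on low values; quantile scaling gave 1.36 for MFAP4, and recovered reads scaled to library depth gave 2.42, 1.70 and 1.29 for DHRS2, AMH and MFAP4. Leaving out each library gave 1.94 to 2.13 for DHRS2, 1.25 to 1.50 for AMH and 1.12 to 1.19 for MFAP4.

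Of the counts, no filter gave 5374 called genes with 2518 rises, 14 short-chain dehydrogenases, 4 BMP targets and inhibitors and 2 fibrinogen-domain genes. A filter at a mean of 5 FPKM, which tests fewer genes, gave 1139 with 415 rises and 724 falls, 2 short-chain dehydrogenases, 0 receptors and SMADs, 0 ligands and 6 NOTCH targets. Receptors and SMADs called were 4 with median-of-ratios scaling, quantile scaling and limma-voom. Over all tested genes, quantile scaling called 1988 rises and 1849 falls, and median-of-ratios scaling 1786 rises and 2079 falls. Which direction was the more frequent thus depended on the scaling. Limma-voom with the filter of 20 reads, added after seeing the data, gave 6226 calls with 2918 rises and 3308 falls, and 14 short-chain dehydrogenases, 7 receptors and SMADs, 5 BMP targets and 3 fibrinogen-domain genes. Leaving out each library gave 2207 to 3555 called genes, 846 to 1718 rises, 5 to 9 short-chain dehydrogenases, 1 to 3 receptors and SMADs and 0 to 1 fibrinogen-domain genes; beyond fewer or more genes or libraries tested, the cause was not tested.

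DMSO and gSI libraries share replicate numbers in the labels, which do not say that they pair. Same-numbered libraries deviated together (correlation 0.258 across tested genes), and with the replicate block 3705 genes were called, 1591 rises and 2114 falls. The planned diet comparisons were not run, as no member was analysed in the mouse table, nor was the motif search. AMH rests on 138 and 143 control reads, which limits its precision.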
